A study of Mus musculus with 6 samples.

Results

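Rab GTPases and SNARE proteins direct vesicle traffic, and their transcripts were read in mouse eggs matured in vitro (IVM) or in vivo (IVO). The group holds every gene of the deposited table whose symbol is Rab, Stx or Vamp followed by a number and at most a short suffix, together with Snap23, Snap25, Snap29, Napa, Napb and Nsf. It comes to 86 of 24254 genes: 58 Rab GTPases, 15 syntaxins, 7 VAMPs, 3 members of the SNAP-25 family and 3 genes for taking used SNARE complexes apart. The rule reads symbols alone and no measured value.

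The study sequenced RNA from oocytes (eggs) at metaphase II, where an ovulated egg pauses until fertilization, in 3 libraries after in vitro maturation and 3 after in vivo maturation. Strain, age of the females, eggs per library and hormone treatment are unstated in the sources used here. No label tells whether replicates came from separate collections, so the p-values cover the spread among these libraries alone, and that spread may be technical. Values are FPKM, fragment numbers adjusted for transcript length and library depth, so they are per length and can be set side by side between genes.

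A Rab protein sits on a membrane when bound to GTP and leaves it when bound to GDP, and each Rab marks its own compartment, recruiting the tethers and motors that move and dock a vesicle. SNAREs on the vesicle and on its target then zip into a helical bundle that fuses the membranes, after which the ATPase NSF and its adaptor alpha-SNAP pull the bundle apart for reuse. In eggs this machinery supplies the plasma membrane and secretes the cortical granules, vesicles under the cortex that fuse at fertilization and change the zona pellucida so that further sperm cannot enter.

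A metaphase II egg does not transcribe its genes, and its stored messages are known to be controlled through their tails. A cytoplasmic polyadenylation element, written TTTTAT or TTTTAAT in the sense strand, lies a short way before the polyadenylation signal AATAAA or ATTAAA in many messages whose tails are lengthened during maturation. Windows of 30 bases are printed here for members at the 3′ end of the annotated GENCODE M21 transcript (GRCm38), 5′ to 3′ in the sense strand, because they show the letters this control reads in messages whose levels are reported next. Capitals mark every match to those motifs within a window. The first 3 windows hold an element in genes lower in IVM eggs, the next 2 hold one in genes that passed no threshold, and the last 3 hold the signal in genes higher in IVM eggs.
Rab6a: ttgactcttttgTTTTATtttgacatggca
Rab8b: tttaaaaatgaaTTTTATtccaggtgaact
Stx7: catgaaactgacTTTTATtgacaatattta
Rab11a: tttggacttttTTTTAATctattgatttgg
Snap23: gggattAATAAAtcttaTTTTATaaactta
Nsf: ttgaaggaatgcAATAAAgagtaaatatac
Stx5a: cttgggtttgacATTAAAgtttcagtcaac
Rab8a: ccacatgctgacATTAAAggtgagtgctat

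An element was searched in the last 100 bases of each transcript, on the sense strand only, since the motif is read in RNA. It was found in 0 of the 11 members higher in IVM eggs, 4 of the 10 lower members and 7 of the 25 that passed no threshold. Over all tested genes with a transcript 23.7% held one, with 14.4% among all genes higher in IVM eggs and 27.7% among all lower ones. In Snap23 the element follows the signal. No element in this window says only that these letters are not there, and which 3′ end the eggs use is not known from the table.

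All libraries were comparable in depth as far as it can be read: the smallest steps in low FPKM values put the other 5 libraries at 0.785 to 0.914 of the depth of IVM replicate 1, but the number of reads is unknown. Summed FPKM ran from 353438 to 364983 in IVM and from 394233 to 402054 in IVO libraries. More genes reached 1 FPKM in every IVM library (7853 to 8029) than in any IVO library (7187 to 7327). Members listed at 0 numbered 15 to 19 per IVM library and 17 to 25 per IVO library. The part of this shift in the calls of low members was not tested. Of 12 oocyte markers 11 were tested and 9 were higher in IVM eggs, with summed levels of 14041 to 14389 FPKM against 8966 to 10953. Gdf9 carries most of that sum; the median log2 difference of the 11 was 2.89, and Zp3, for example, had means of 210.5 against 16.5 FPKM. Of 22 cumulus and granulosa cell markers 11 were tested, 2 higher and 3 lower in IVM, with summed levels of 39.0 to 68.1 against 33.3 to 83.7 FPKM. Inha (means of 16.9 FPKM in IVM against 3.90 in IVO) and Kitl (6.19 against 3.92) were higher. Inhba (0.248 against 2.18), Tnfaip6 (0.242 against 2.76) and Sdc4 (0.330 against 1.80) were lower. None of the 22 was listed at 0 in all 6 libraries, though the receptors Fshr and Lhcgr, under the filter, were listed at 0 in every IVO library. All 9 blood markers fell under the filter, with summed levels of 0.678 to 2.69 against 0.713 to 3.57 FPKM. Of 10 oviduct markers 4 were tested, 1 higher and 2 lower, with summed levels of 222 to 249.5 against 266 to 285 FPKM. Cldn4 was higher, with means of 74.3 FPKM in IVM against 28.8 in IVO. Spp1 (4.49 against 41.8) and Cdh1 (158.5 against 200.9) were lower. Under the filter, Ovgp1 had means of 0.0862 FPKM in IVM against 0.574 in IVO, and Pax8 and Krt19 were listed at 0 throughout. The part of these shifts in the member results was not tested. Fewer cells of a type and less RNA per cell cannot be told apart in such bulk samples.

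Of the 86 members, 46 reached a mean of 1 FPKM over the 6 libraries and were tested (31 Rab genes and 15 SNARE and fusion genes), with limma on log2(FPKM + 1) over all 7746 genes that did. The other 40 lay below that filter, and 7 of them, Rab25, Rab37 and Vamp7 among these, were listed at 0 in every library. A listed 0 is not read as absence, because it can be a failed estimate: Scfd1, which cells need for transport to the Golgi, was also listed at 0 in every library. Differences are IVM minus IVO of log2(FPKM + 1), a scale on which the change of a low gene comes out too small, and a gene is called higher or lower at a Benjamini-Hochberg adjusted p under 0.05.

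Of the 46 tested members 11 were higher and 10 lower in IVM eggs, and 25 passed no threshold. Across all tested genes 41.0% were called, 20.6% higher and 20.4% lower, against 45.7%, 23.9% and 21.7% of the members, so the members were called about as often as genes at large. The Rab genes gave 5 higher, 7 lower and 19 neither, with a median log2 difference of -0.09, beside -0.02 over all tested genes. The SNARE and fusion genes gave 6 higher, 3 lower and 6 neither, with a median of 0.23. The balance moved with scaling: with all libraries at one total FPKM, 7 Rab genes were higher and 4 lower, 7 SNARE and fusion genes higher and 2 lower, and over all tested genes 1949 higher and 1167 lower, in place of 1595 and 1583. With quantile normalization the Rab genes gave 3 higher and 7 lower (all tested genes 1427 and 1777), and with upper quartile scaling 6 and 6 (1795 and 1308). In 29 of the 46 members the IVM and IVO libraries did not overlap, 14 of them higher and 15 lower in IVM, which also held for 53.5% of all tested genes (25.8% higher and 27.7% lower). A called difference of at least 1 was found in 7 genes higher in IVM (Rab1b, Rab8a, Rab3b, Stx5a, Nsf, Napa and Stx2) and in 0 lower, beside 11.2% and 4.21% of all tested genes. Napa and Rab3b, with IVO means of 0.603 and 0.356 FPKM, passed the filter only through their IVM level. Nothing is therefore read from 7 against 0. The 0 is not firm: without IVO replicate 2 the differences of Rab23 and Vamp4 were -1.04 and -1.11, and that of Vamp4 was -1.01 without IVM replicate 2 and -1.00209 with a pseudocount of 0.1.

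The eggs' Rab messages were dominated by a few genes. Rab14, which acts between the trans-Golgi network and endosomes, made up 26.5% of the summed Rab FPKM, Rab14, Rab6a, Rab11a and Rab7 together 53.7%, and the 8 most abundant Rabs 73.4%. Summed over all Rab genes, the level was 1504, 1504 and 1527 FPKM in the 3 IVM libraries and 1747, 1741 and 1665 in the 3 IVO libraries. Every IVM library lay below every IVO library; the difference in means of -206 FPKM had an exact two-sided permutation p of 0.1, the smallest that 3 against 3 allows. After scaling all libraries to one total FPKM it shrank to -48.1 FPKM (exact p = 0.2), and as a share of all FPKM the Rab genes held 0.412% to 0.432% in IVM and 0.421% to 0.442% in IVO libraries, which overlap.

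**Figure D1:**
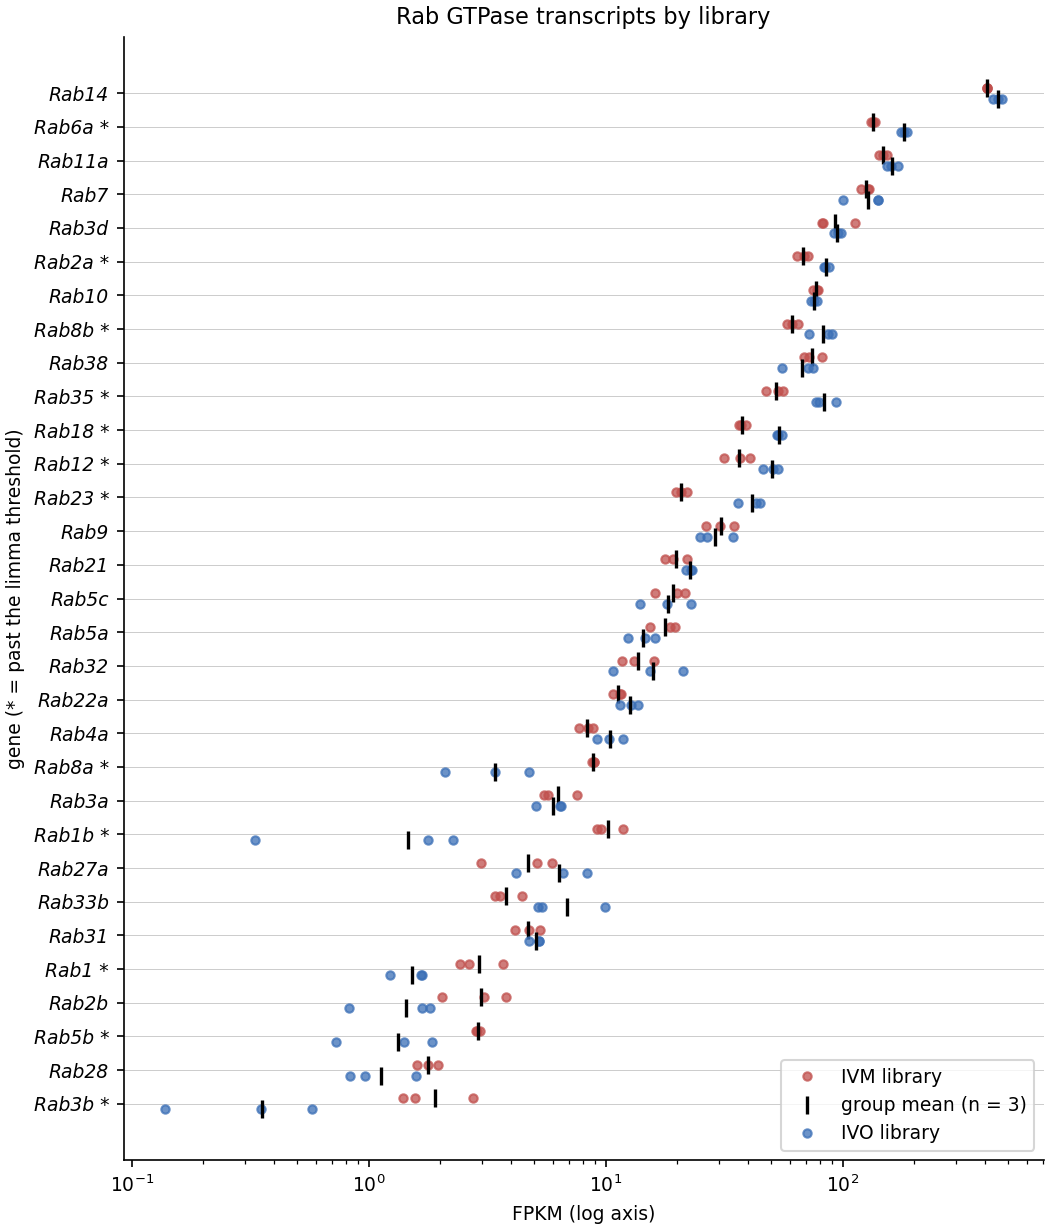
FPKM of each tested Rab gene (log axis) in the 3 IVM and 3 IVO libraries, 1 point per library, with bars at group means and asterisks on the 12 genes past the limma threshold. Genes run from Rab14, at 405 to 469 FPKM, down to Rab3b, where all IVM points lie above all IVO points.

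Rab14 itself (chromosome 2, 35180205 to 35201120, minus strand) had 405.0, 404.6 and 405.5 FPKM in IVM replicates 1, 2 and 3 and 469, 450.1 and 431 in the IVO replicates. All IVM libraries lay below all IVO libraries, by a log2 difference of -0.15 (SE 0.07, adjusted p = 0.096) that did not pass the threshold. Its 95% interval before adjustment ran from -0.299 to -0.00235.

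Rabs of the endoplasmic reticulum and Golgi moved in both directions. Rab1 (also called Rab1a) and Rab1b, which carry vesicles from the endoplasmic reticulum to the Golgi, were both higher in IVM eggs. Rab1b (chromosome 19, 5099205 to 5107072, minus strand) had 9.58, 9.14 and 11.8 FPKM in the IVM and 0.332, 1.77 and 2.27 in the IVO libraries. The groups were far apart, with every IVM library several times the highest IVO library. Its mean was 6.97 times the IVO mean, a log2 difference of 2.28 (SE 0.32, adjusted p = 0.000636). Rab1 had 2.91 ± 0.673 FPKM in IVM and 1.53 ± 0.254 in IVO eggs (SD, n = 3, as for every mean here), a difference of 0.62 (SE 0.20, adjusted p = 0.0353). That call was lost when IVM replicate 1, 2 or 3 or IVO replicate 1 or 2 was left out and with no filter, and with quantile normalization the Rab1 difference was 0.35 (adjusted p = 0.214).

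Several more abundant Rabs of these compartments were lower in IVM eggs. Rab6a (chromosome 7, 100607410 to 100641268, plus strand), which drives retrograde traffic at the Golgi and carries secretory vesicles to the surface, had 137, 131 and 134 FPKM in IVM and 177, 186 and 181 in IVO libraries. The groups did not overlap, and the difference was -0.43 (SE 0.07, adjusted p = 0.00158). Its annotated exons share 403 bases with Mrpl48 on the opposite strand, and whether the counting used strand is not stated. Exons of Rab2b, Rab3a, Rab3b, Rab5a, Rab7, Rab10, Rab11a, Rab18, Rab22a, Rab27a, Rab33b and Snap29 also overlap those of another annotated gene, so reads may be split or shared there. Rab2a, which works between the endoplasmic reticulum and Golgi, had 68.0 ± 3.44 FPKM in IVM and 85.0 ± 2.30 in IVO eggs, a difference of -0.32 (SE 0.08, adjusted p = 0.0145). The Rab2a call was lost without IVM replicate 3, under the other scalings (adjusted p = 0.0979 at one total FPKM, 0.0535 with upper quartiles and 0.0856 with quantile normalization) and without the intensity trend (0.0551). Rab18, found on the endoplasmic reticulum and lipid droplets, had 39.0, 37.1 and 36.6 FPKM in IVM and 55.6, 53.4 and 52.5 in IVO eggs. These libraries lay tightly within each group and well apart between groups, with a difference of -0.51 (SE 0.09, adjusted p = 0.00214). Rab33b, a Golgi and autophagy Rab, had 3.81 ± 0.540 FPKM in IVM and 6.83 ± 2.70 in IVO eggs and missed the limma threshold (adjusted p = 0.0553), while the authors' deposited table gives it a q-value of 0.000248.

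Of the Rabs of endosomes and of signalling, Rab35, Rab12 and Rab23 fell. Rab35 (chromosome 5, 115631908 to 115647736, plus strand), which recycles cargo from endosomes to the cell cortex, had 53.4, 55.9 and 47.5 FPKM in IVM and 77.4, 79.3 and 93.6 in IVO libraries. No library of one group reached the other, and the difference was -0.66 (SE 0.11, adjusted p = 0.00148). Rab12, which sends endosomal cargo towards lysosomes, had 36.3 ± 4.52 FPKM in IVM and 50.1 ± 3.83 in IVO eggs, a difference of -0.46 (SE 0.12, adjusted p = 0.014), and lost its call without IVM replicate 3 and at one total FPKM (adjusted p = 0.0503). Rab23 (chromosome 1, 33719887 to 33742564, plus strand), known for restraining Hedgehog signalling and for cilia, fell as well. Its levels were 20.7, 19.7 and 22.1 FPKM in IVM and 42.8, 36.0 and 44.8 in IVO eggs. The IVO mean was 1.98 times the IVM mean, and the difference was -0.95 (SE 0.12, adjusted p = 0.000339).

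The Rabs that define early, late and recycling endosomes did not pass the threshold. Rab5a, the early endosome Rab, had 17.9 ± 2.26 FPKM in IVM and 14.4 ± 1.88 in IVO eggs (difference 0.29, 95% interval -0.04 to 0.63), and its relative Rab5c had 19.2 ± 2.85 FPKM in IVM and 18.3 ± 4.45 in IVO eggs. Rab7, the late endosome Rab, had 128, 129.6 and 119.6 FPKM in IVM and 140.2, 141 and 100.4 in IVO libraries. IVO replicate 3 was the lowest of the 6 and the other IVO libraries the highest, so the groups overlap, and the interval ran from -0.30 to 0.30. Rab4a, a fast recycling Rab, had 8.32 ± 0.579 FPKM in IVM and 10.4 ± 1.33 in IVO eggs, without overlap but short of the threshold (adjusted p = 0.145). Rab5b was the exception among the early endosome Rabs, with 2.84, 2.96 and 2.85 FPKM in IVM and 0.728, 1.41 and 1.85 in IVO libraries. All IVM libraries lay above all IVO libraries, with a difference of 0.77 (SE 0.22, adjusted p = 0.0222), a call lost without IVM replicate 1, 2 or 3 or IVO replicate 1 and with no filter. With quantile normalization the Rab5b difference was 0.48 (adjusted p = 0.0953). Rab9, Rab10, Rab21, Rab22a, Rab31, Rab32 and Rab38 passed no threshold either, with means from 4.71 to 77.3 FPKM in the IVM eggs.

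Rabs known for the egg's cortical granules were present at very different levels. Rab11a (chromosome 9, 64715299 to 64737758, minus strand), which in mouse oocytes moves vesicles outward along actin with myosin Vb, had 141.8, 148.4 and 153.5 FPKM in IVM and 160.3, 171.3 and 153.6 in IVO libraries. The highest IVM library stopped just short of the lowest IVO library, and the difference of -0.13 (SE 0.08, adjusted p = 0.228) did not pass, with an interval of -0.31 to 0.05. Rab27a (chromosome 9, 73044854 to 73097629, plus strand), which carries cortical granules to the cortex in mouse oocytes, had 2.98, 5.96 and 5.14 FPKM in IVM and 4.18, 6.57 and 8.36 in IVO eggs. Those groups overlap, and the wide interval of -0.996 to 0.26 holds both a fall and a small rise. Its relative Rab27b was listed at 0 in 5 libraries and at 0.0551 FPKM in IVM replicate 2. Rab3a, a regulator of granule release in mouse eggs, had 6.26 ± 1.12 FPKM in IVM and 5.97 ± 0.787 in IVO eggs, with an interval of -0.35 to 0.45.

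Rab3d and Rab8b made up most of the message of their families, and the minor genes Rab3b and Rab8a beside them were higher in IVM eggs. Rab3d, a secretory granule Rab, had 92.4 ± 17.9 FPKM in IVM and 94.98 ± 3.38 in IVO eggs (adjusted p = 0.758). Rab3b, of the same family, had 1.57, 1.40 and 2.76 FPKM in IVM and 0.139, 0.352 and 0.577 in IVO libraries. It was low in both groups and the groups did not overlap, with a difference of 1.08 (SE 0.24, adjusted p = 0.00715); an antisense gene shares 317 exon bases with it. Rab8a (chromosome 8, 72161200 to 72183904, plus strand), which takes vesicles from the Golgi to the plasma membrane, had 8.96, 8.74 and 8.92 FPKM in IVM and 4.72, 3.41 and 2.11 in IVO eggs. The IVM libraries were nearly equal and all above the IVO libraries, with a mean 2.60 times as high and a difference of 1.21 (SE 0.22, adjusted p = 0.00284). Rab8b (chromosome 9, 66843664 to 66919687, minus strand), with the same role, went the other way, with 64.6, 61.2 and 58.0 FPKM in IVM and 86.7, 89.6 and 72.1 in IVO libraries. Its difference was -0.42 (SE 0.11, adjusted p = 0.012), and the call was lost when all libraries were scaled to one total FPKM (adjusted p = 0.0535, in a range of 0.00163 to 0.0535 over the alternatives).

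The share of Rab8b in its pair was lower in every IVM library than in any IVO library. It held 87.8%, 87.5% and 86.7% of the pair's summed FPKM in the IVM libraries and 94.8%, 96.3% and 97.2% in the IVO libraries. Rab1b held 77.7% ± 4.89 of the Rab1 pair in IVM and 43.4% ± 19.5 in IVO eggs, so that Rab1b led in all IVM libraries and in IVO replicates 2 and 3, but not in IVO replicate 1. Rab2a held 95.9% ± 1.02 against 98.3% ± 0.582 of its pair, and Rab3d 91.9% ± 0.304 against 93.7% ± 0.584 of its family of 4. Rab11a held 99.2% ± 0.207 against 99.7% ± 0.0757 of its pair. Each of these shares did not overlap between groups and reached the smallest exact permutation p, 0.1 (0.233 after Benjamini-Hochberg adjustment over 14 families). The shares are made of the FPKM given gene by gene, so they are no separate result. The Rab5 family did not separate, with Rab5c at 48.0% ± 5.79 and 53.4% ± 6.99 (exact permutation p = 0.3). Nor did the pairs of Rab4, Rab6, Rab9, Rab27, Rab33, Rab40, Stx1 and Napa with Napb. Over all Rab families that share a number, coding sequences of relatives were 63.1% (Rab33a and Rab33b) to 78.4% (Rab6a and Rab6b) identical. Rab8a and Rab8b had 77.4%, and Rab1 and Rab1b 76.1%.

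**Figure D2:**
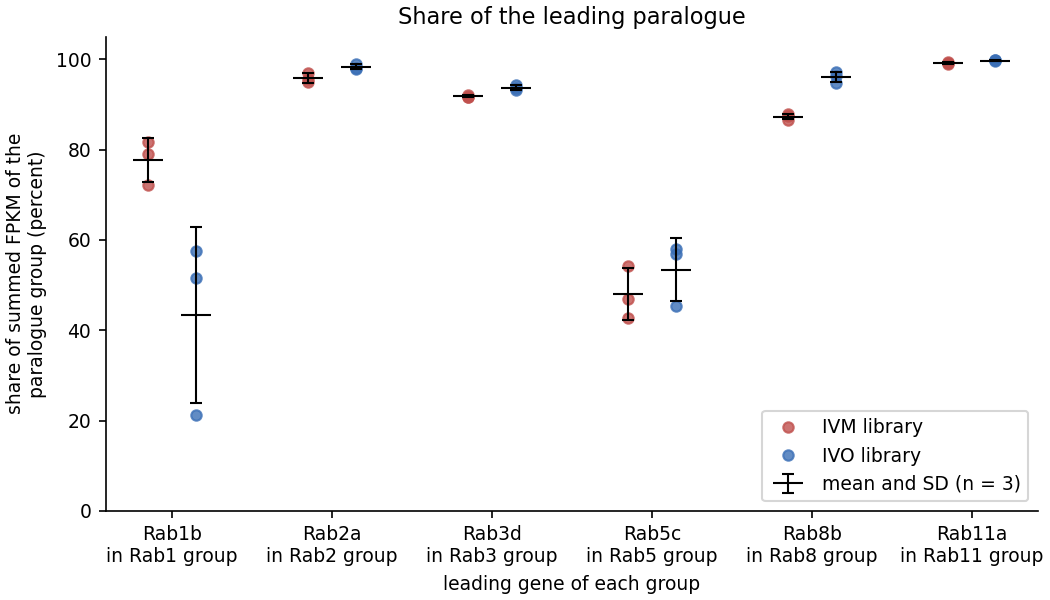
Share of a family's summed FPKM held by its leading gene (percent, per library), for families of members that differ only in their letter. Only Rab1, Rab2, Rab3, Rab5, Rab8 and Rab11 were chosen for drawing, and the other families are not shown. Points stand for the 3 IVM and 3 IVO libraries and bars for group means and SD. Rab8b lies above 94% in IVO and below 88% in IVM libraries, while Rab5c overlaps between groups.

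Among the SNARE messages a pair of syntaxins led. Stx6 and Stx12 together made up 47.6% of the summed SNARE and fusion FPKM and the first 6 genes 82.1%. The summed FPKM of SNARE and fusion genes was 211 ± 7.18 in IVM and 207 ± 11.5 in IVO eggs, a difference of 4.18 (exact permutation p = 0.7). Without IVO replicate 3 that difference turned to -1.13 FPKM. As a share of all FPKM, however, these genes held 0.0574% to 0.0594% in IVM and 0.0496% to 0.0545% in IVO libraries, which do not overlap. After scaling all libraries to one total FPKM the difference was 24.7 FPKM (exact permutation p = 0.1, the smallest that 3 against 3 allows). With upper quartile scaling and with quantile normalization the exact permutation p was 0.2.

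**Figure D3:**
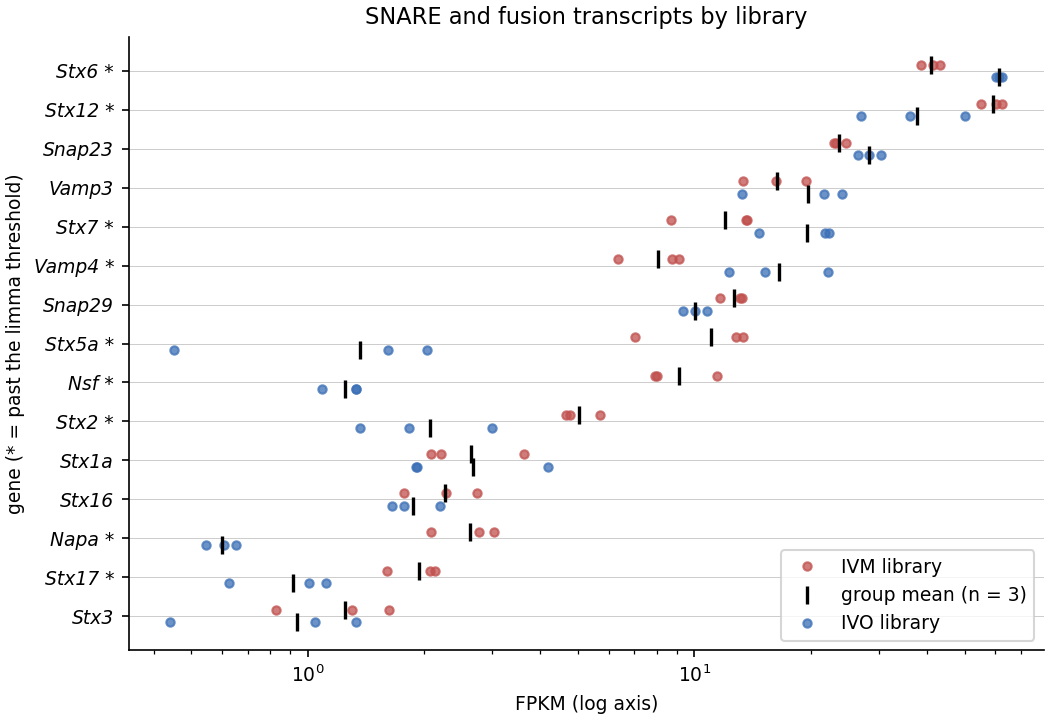
FPKM of each tested SNARE or fusion gene (log axis) in the 3 IVM and 3 IVO libraries, 1 point per library, with bars at group means and asterisks on the 9 genes past the limma threshold. Stx5a, Nsf and Napa show a wide gap between the groups, and Stx6 a narrow one in the other direction.

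Stx5a, the syntaxin of traffic between the endoplasmic reticulum and Golgi, was higher in IVM eggs. It lies on chromosome 19, 8741413 to 8756069, plus strand, and had 7.02, 12.8 and 13.3 FPKM in IVM and 0.453, 1.62 and 2.03 in IVO libraries. Even the lowest IVM library lay well above the highest IVO library, although both groups spread widely. The mean was 8.08 times as high in IVM, a log2 difference of 2.37 (SE 0.32, adjusted p = 0.000566). Stx2, a plasma membrane syntaxin, had 4.66, 4.77 and 5.70 FPKM in IVM and 1.37, 1.83 and 3.00 in IVO eggs. Its groups did not overlap and differed by 1.01 (SE 0.22, adjusted p = 0.00688).

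Syntaxins of the endosomal system split. Stx12 (syntaxin 13), of recycling endosomes, had 62.4, 60.0 and 55.1 FPKM in IVM and 49.97, 36.1 and 26.9 in IVO libraries. IVM libraries were close together, IVO libraries spread widely, and the groups did not overlap. The difference was 0.68 (SE 0.19, adjusted p = 0.02), and the call was lost without IVM replicate 1, 2 or 3 or IVO replicate 2 and with no filter. Stx6 (chromosome 1, 155158715 to 155208256, plus strand), of the trans-Golgi network and endosomes, had 41.3, 43.3 and 38.4 FPKM in IVM and 61.1, 62.4 and 60.0 in IVO libraries. The libraries lay close together within each group, and the difference was -0.57 (SE 0.09, adjusted p = 0.00133). Stx7, of late endosomes, had 12.0 ± 2.83 FPKM in IVM and 19.6 ± 4.25 in IVO eggs, a difference of -0.67 (SE 0.21, adjusted p = 0.0335) whose call did not hold without IVM replicate 3 or IVO replicate 1 or 2, nor with no filter, at one total FPKM, with upper quartile scaling or without the intensity trend (adjusted p = 0.055 to 0.114 over these). Stx17, which fuses autophagosomes with lysosomes, had 1.94 ± 0.291 FPKM in IVM and 0.917 ± 0.259 in IVO eggs, with a difference of 0.62 (SE 0.20, adjusted p = 0.0359) lost without any 1 IVM library, without IVO replicate 1 or 2 and with no filter. With quantile normalization the Stx17 difference was 0.31 (adjusted p = 0.224). Stx1a, Stx3 and Stx16 overlapped between groups at means of 0.940 to 2.67 FPKM.

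Among the vesicle SNAREs, Vamp3 and Vamp4 carried the message. Vamp4 (chromosome 1, 162570515 to 162599084, plus strand), of the trans-Golgi network, had 8.76, 9.12 and 6.33 FPKM in IVM and 15.2, 12.3 and 22.2 in IVO libraries. All IVM libraries were below all IVO libraries, and the difference was -0.93 (SE 0.22, adjusted p = 0.00954). Vamp3, of recycling endosomes, had 19.4, 16.2 and 13.3 FPKM in IVM and 24.1, 21.6 and 13.3 in IVO eggs, overlapping, with an interval of -0.73 to 0.27. Vamp1, Vamp2 and Vamp8, vesicle SNAREs of regulated secretion, lay under the filter. Vamp8 had 0.440, 1.16 and 1.48 FPKM against 1.12, 0.173 and 1.47, Vamp2 at most 0.110 in any library, and Vamp1 0.233, 0.0365 and 0.0418 in IVM with 0 listed in all IVO libraries.

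Of the SNAP-25 family the eggs held Snap23 and Snap29. Snap23 (chromosome 2, 120567671 to 120601255, plus strand), required for secretion in mouse oocytes, had 24.6, 23.2 and 23.0 FPKM in IVM and 26.4, 28.3 and 30.3 in IVO libraries. The IVM libraries were all lower, yet the difference of -0.25 (SE 0.11, adjusted p = 0.0853) did not pass, with an interval of -0.49 to -0.01 before adjustment. Snap29, used in many fusion steps, had 12.7 ± 0.872 FPKM in IVM and 10.0 ± 0.709 in IVO eggs, again without overlap and with a difference of 0.31 (SE 0.13, adjusted p = 0.0898) that did not pass. The neuronal Snap25 was listed at 0 in 4 libraries, with 0.111 FPKM in IVM replicate 3 and 0.312 in IVO replicate 2. Stx4a, a plasma membrane partner of Snap23, was listed at 0 in 5 libraries and at 0.549 FPKM in IVO replicate 3.

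Nsf and Napa, the tested genes for SNARE disassembly, were higher in IVM eggs. Napa had an IVO mean of 0.603 FPKM and passed the filter only through its IVM level, so nothing is read from their number. Nsf (chromosome 11, 103821782 to 103954056, minus strand), the ATPase that separates used SNARE complexes, had 7.90, 8.01 and 11.4 FPKM in IVM and 1.09, 1.34 and 1.33 in IVO libraries. The IVO libraries were almost equal and every IVM library lay several times above them, the mean 7.27 times as high. The difference was 2.15 (SE 0.19, adjusted p = 7.39e-05). Napa (chromosome 7, 16098458 to 16117975, plus strand), which encodes the adaptor alpha-SNAP, had 2.77, 2.09 and 3.04 FPKM in IVM and 0.609, 0.654 and 0.546 in IVO eggs. The groups did not overlap, the mean was 4.37 times as high in IVM, and the difference was 1.17 (SE 0.19, adjusted p = 0.00152). Its neuronal relative Napb stayed at or under 0.386 FPKM in every library.

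Calls were also counted by abundance, beside all genes of the same level. Of the 18 members with a mean of at least 20 FPKM, 1 was higher (Stx12) and 8 were lower, beside 14.9% and 36.8% of all genes in that range (51.7% in either direction). Of the 16 between 5 and 20 FPKM, 4 were higher and 2 lower, beside 21.4% and 23.2% (44.6% in either direction). Of the 12 between 1 and 5 FPKM, 6 were higher and 0 lower, beside 24.1% and 7.03% (31.1% in either direction). All 7 lower Rab genes were among the 15 Rabs of at least 20 FPKM, a range in which 0 Rabs were higher. Of those 6, Napa, Stx17 and Rab3b had IVO means under 1 FPKM and passed the filter only through their IVM level, so nothing is read from the count in that range.

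**Figure D4:**
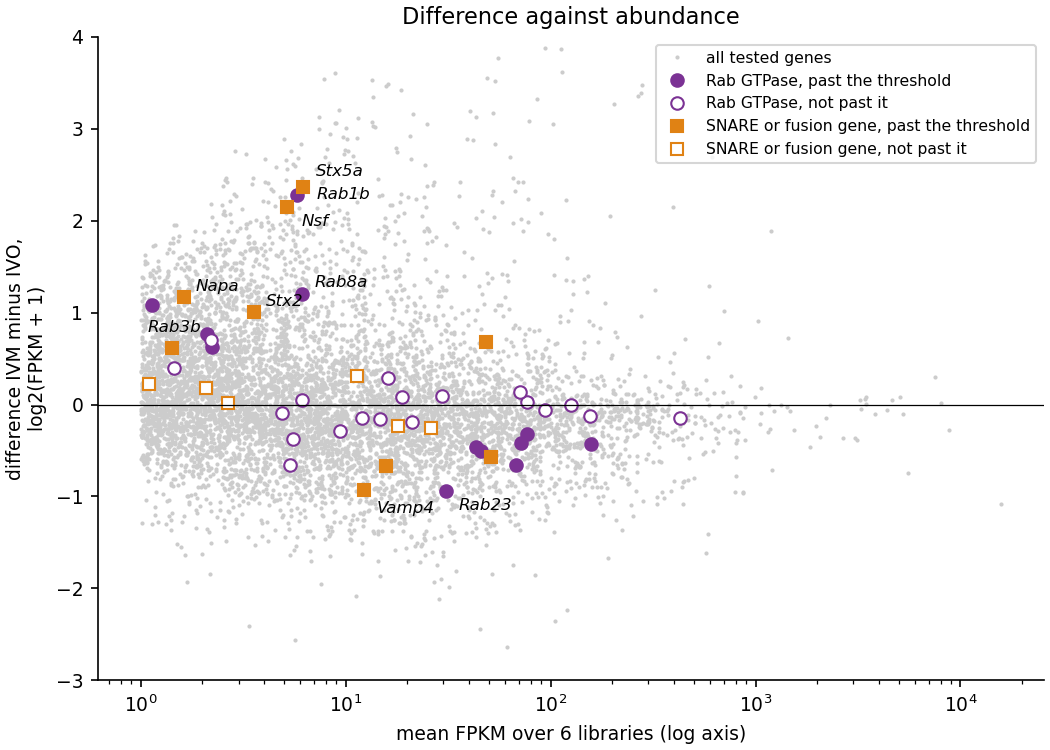
Log2 difference IVM minus IVO (on log2(FPKM + 1)) against mean FPKM over 6 libraries (log axis), with grey points for all tested genes, circles for Rab genes and squares for SNARE and fusion genes, filled where past the threshold. Filled members below 0 include Rab23 and Vamp4, and those highest above 0 are Stx5a, Rab1b and Nsf; 7 other genes beyond -3 to 4 are not drawn.

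Of the 33 members under the filter with a value above 0, 8 were higher in every IVM library than in any IVO library and 0 were lower, beside 14.9% and 3.66% of all such genes. They were left out of the limma counts given so far. Rab11b, the minor relative of Rab11a, had 1.42, 0.881 and 1.35 FPKM in IVM against 0.590, 0.407 and 0.361 in IVO libraries. Rab40c, which belongs to a ubiquitin ligase, had 1.27, 1.52 and 0.891 against 0.0478, 0.748 and 0.234, and Rab30, a Golgi Rab, 1.47, 1.14 and 1.604 against 0.691, 0.405 and 0. The authors' deposited table gives these 3 a q-value under 0.05 (0.00232 for Rab11b, 0.0325 for Rab40c and 0.0352 for Rab30), beside 2.13% of genes under the filter called higher and 0.424% called lower there. Stx18, Rab39b, Rab29, Stx19 and Vamp1 were at or under 0.763 FPKM in every library. With no filter limma called Rab29, Rab30 and Stx19 higher, none of the other members under it. Rab29 and Stx19 were listed at 0 in every IVO library and reached at most 0.324 and 0.173 FPKM in IVM, so both calls rest on listed zeros. The remaining Rabs under the filter, such as Rab13, Rab24 and Rab34, overlapped.

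The authors' deposited table gives q-values for the same contrast. At a q under 0.05 it called 11 tested members higher and 11 lower, with 21.7% and 23.0% of all tested genes (44.7% together), and the 21 members called here were among them with Rab33b added. Between replicates of the same group, the authors' deposited table calls 0 of the 86 members in any of the 6 pairs, with a lowest q-value of 0.926. Each such pair sets a single library against another, and the share over all genes was not counted. Nothing is therefore read from that 0.

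Genes for proteins that act on Rabs and SNAREs were called about as often as genes at large. Of 220 such genes in 7 lists, 119 were tested, 25 were higher and 21 lower, or 38.7% beside the 41.0% of all tested genes. Among SNAREs and their relatives outside the naming rule 1 of 11 was higher and 1 lower. Sec22a, related to a SNARE between the endoplasmic reticulum and Golgi, rose from 2.89 ± 0.970 FPKM in IVO to 8.51 ± 0.305 in IVM eggs. That SNARE itself, Sec22b, fell from 11.8 ± 2.31 to 7.65 ± 0.542 (adjusted p = 0.0249), a call lost without any 1 IVM library or without IVO replicate 3. Of 14 SNARE regulators 4 were higher and 0 lower, among them the calcium sensor Syt7 (3.76 ± 0.721 against 1.47 ± 0.104 FPKM), Syt16 (4.21 ± 0.366 against 1.41 ± 0.353) and the syntaxin binder Txlna, whose call was lost without any 1 IVM library or IVO replicate 1 or 3.

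Genes that load and switch Rabs also split. Of 8 carriers 2 were higher and 1 lower: Rabif, which holds Rabs that carry no nucleotide, had 15.8 ± 1.44 FPKM in IVM against 37.2 ± 5.16 in IVO eggs, a difference of -1.18 (adjusted p = 0.000224), and Rabac1, the prenylated Rab acceptor, was higher (adjusted p = 0.0335), a call lost without IVM replicate 1 or 3 or IVO replicate 1 or 2. Of 30 exchange factors, which switch Rabs on, 3 were higher and 8 lower. Trappc5, a subunit of the TRAPP complex that activates Rab1, had 7.77, 8.05 and 8.67 FPKM in IVM and 1.54, 0.819 and 1.80 in IVO libraries, a difference of 1.96 (adjusted p = 0.00015). The TRAPP subunit Trappc4 went the other way, at 1.46 ± 0.476 against 3.67 ± 0.580 FPKM. Rab3il1, an exchange factor of the Rabin family, had 3.06 ± 0.547 against 1.21 ± 0.382.

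Of 22 TBC-domain proteins, the family of GTPase activators that switch Rabs off, 6 were higher and 4 lower. Sgsm1 had 12.9, 14.3 and 13.6 FPKM in IVM and 2.88, 1.27 and 1.27 in IVO eggs, and Tbc1d10b 13.9 ± 1.73 against 2.45 ± 1.26. Tbc1d8 fell from 81.7 ± 12.0 FPKM in IVO to 21.9 ± 0.952 in IVM eggs, a difference of -1.84 (adjusted p = 2.05e-05). Their median difference lay at -0.09 on the log2 scale.

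Effectors, motors and tethers complete the pathway. Of 22 effectors and motors 8 were higher and 5 lower. Bicd2, the adaptor that couples Rab6 vesicles to dynein, had 39.1, 43.2 and 39.4 FPKM in IVM and 15.3, 8.89 and 7.73 in IVO libraries, a difference of 1.89 (adjusted p = 0.000224), opposite in sign to Rab6a. Rab11fip5, which binds Rab11, had 12.6 ± 0.591 against 2.65 ± 1.46 FPKM, and Rufy1, an endosomal effector, 4.91 ± 0.977 against 2.12 ± 0.582. Of 12 tethering genes 1 was higher and 2 lower: Cog6 of the Golgi tether COG rose from 1.19 ± 0.275 to 4.65 ± 0.855 FPKM. Tgfbrap1 of the early endosome tether CORVET fell from 36.0 ± 2.43 to 13.2 ± 0.650, and the exocyst subunit Exoc1 from 43.9 ± 4.94 to 29.0 ± 1.90.

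**Figure D5:**
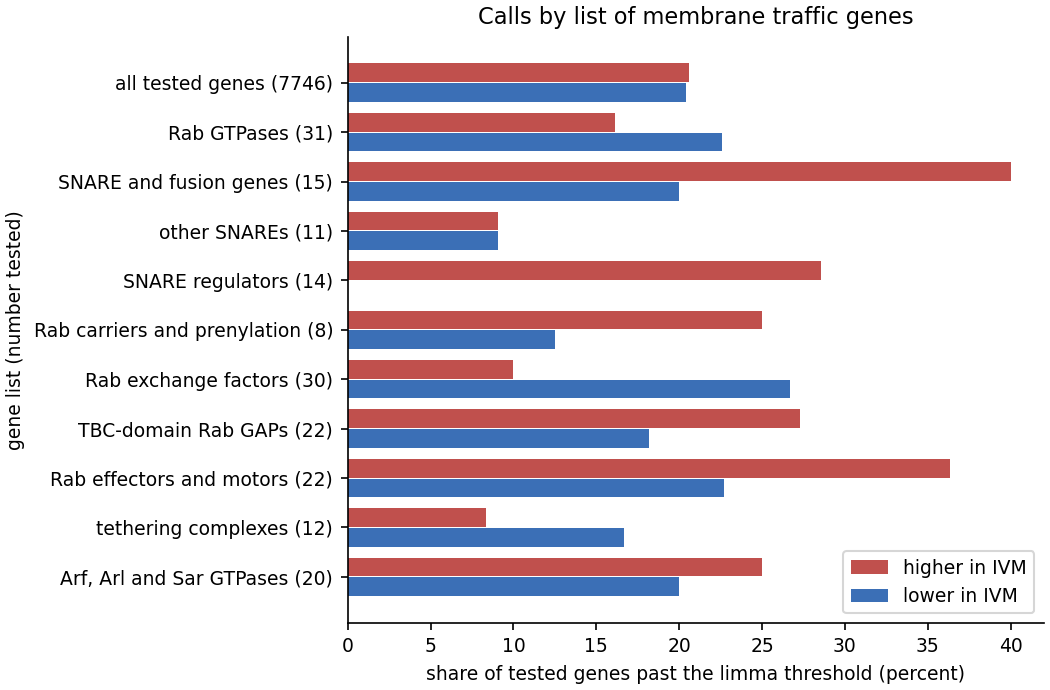
Share of tested genes (percent) higher and lower in IVM eggs at a limma adjusted p under 0.05, drawn as paired bars. Bars are given for all tested genes and for each list of vesicle traffic genes. They stand for 6 higher and 3 lower of 15 SNARE and fusion genes, 5 and 7 of 31 Rab genes, and 3 and 8 of 30 exchange factors.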

How the data were processed

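RNA of 6 libraries of metaphase II mouse eggs, 3 IVM and 3 IVO, was measured, grouped by the culture environment in the labels. Gene values are FPKM that the authors deposited for every library, per the file headers. They also deposited p-values and q-values, per the file headers, for the 2 groups and for pairs of libraries. Aligner, counting tool, strandedness and poly(A) selection are not stated in the sources used here. The log2 ratio columns, partly spoiled by spreadsheet errors, were left out. The submitters' processing notes name mm9, yet 99.4% of the 23105 symbols present in GENCODE M21 overlapped their gene in GRCm38, so the coordinates printed are GRCm38 from that annotation. Of 24254 rows 7775 were at 0 throughout, 1 line had been emptied, and 27 symbols turned into dates were left as they are, none of a member.

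The 7746 genes averaging 1 FPKM or more were tested with limma 3.58.1 (R 4.3.3) on log2(FPKM + 1), using its intensity trend and no replicate block, two-sided, and Benjamini-Hochberg adjustment at 0.05. FPKM are not counts, so no count test was run, depth in reads is unknown and no interval for counting error is given. For single values the difference in means was compared over all exact permutations, two-sided. The fit was also run on simulated data with independent noise and 200 changed genes, far fewer than were called here. Nothing is read from that run for these calls. Members, lists and tests were chosen with earlier results of these data known.

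Genes named are the 8 Rab and 6 SNARE members of highest mean FPKM, called members averaging at least 2 FPKM (up to 10 per direction), members known for cortical granules or the egg cortex, families that share a number, and up to 3 called genes of at least 2 FPKM in each other list. Rab21, Rab22a, Rab31, Rab32, Rab38, Snap29, Stx3, Stx16, Stx17 and other members under the filter were named after their values were seen. Alternatives were the pseudocount, the filter, scaling, the trend, array weights, a length trend, the threshold, the authors' q-values, a replicate block and leaving out each library.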

Additional observations from a re-analysis of the deposited data

How the results depend on the processing

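Over 19 alternatives, 13 of the 21 called members kept their call in every one that gave a value, 1 (Rab8b) lost it in 2, and 7 (Rab2a, Rab12, Rab1, Rab5b, Stx12, Stx7 and Stx17) in 3 or more. No called member changed direction; 31 sign changes among member values past no threshold under either setting are not counted as reversals. Log2 differences ran from 1.32 to 3.08 for Stx5a, 1.24 to 3.04 for Rab1b and 1.17 to 2.75 for Nsf over alternatives in which the pseudocount went from 0.1 to 5. Calls were gained by 6 tested members, Rab2b, Rab5a, Rab14, Rab33b, Snap29 and Vamp3, and with no filter also by Rab29, Rab30 and Stx19. With a filter at 5 FPKM, 2 Rab and 3 SNARE and fusion genes were higher, because fewer genes were tested. Of all 4505 genes tested there, 835 were higher and 1392 lower. Scaling all libraries to one total FPKM, which moved the median log2 difference of all genes from -0.02 to 0.10, left 4 Rab genes lower, and quantile normalization left 3 higher; the cause was not tested. At an adjusted p of 0.01, 3 Rab genes were higher and 4 lower, and the counts over all genes were not taken at that threshold. Leaving out 1 library gave 3 to 5 higher and 5 to 8 lower Rab genes, and 4 to 6 higher and 2 to 4 lower SNARE and fusion genes. Counts over all tested genes moved as well, with 1205 to 1634 higher and 1177 to 1617 lower. The difference in summed Rab FPKM was -106.8 with upper quartile scaling, -48.1 when rescaled and -65.5 with quantile normalization, and that in the summed FPKM of SNARE and fusion genes 17.1 with upper quartile scaling, 24.7 when rescaled and 11.0 with quantile normalization. Leaving out 1 library moved the latter between -1.13 (without IVO replicate 3) and 10.3. With a replicate block, 5 Rab genes were higher (Rab1 lost, Rab2b gained) and 7 lower, and 5 SNARE and fusion genes were higher (Stx17 lost) and 3 lower. Over all tested genes 1626 were higher and 1558 lower with that block. The numbers do not pair the libraries, though: deviations from the group means of same-numbered libraries correlated across genes at 0.0777, 0.0599 and 0.0900. Each library correlated best with its own number, a hint from the data and not from the design. Depth in reads is unknown, so what counting error hides among members near 1 FPKM cannot be stated.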

Other observations

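Another family of small GTPases of vesicle traffic, the Arf, Arl and Sar genes, which recruit coats and motors to membranes, gave a similar share of calls. Of 28 such genes, 20 were tested, 5 were higher and 4 lower in IVM eggs, or 45.0%, and their median log2 difference was 0.09. Arl15 had 25.5, 28.3 and 24.2 FPKM in IVM and 11.5, 11.7 and 10.4 in IVO libraries, a difference of 1.15 (SE 0.12, adjusted p = 0.000162). Arl8a, which moves lysosomes along microtubules, had 2.87, 2.99 and 4.75 against 1.88, 0.599 and 0.353 FPKM (difference 1.28, adjusted p = 0.00965). Arl2, known for tubulin folding, had 4.09, 5.02 and 4.68 FPKM in IVM and 0, 1.51 and 2.24 in IVO libraries (difference 1.47, adjusted p = 0.0147). The Arl2 call was lost without IVM replicate 3, with a pseudocount of 0.1 (limma adjusted p = 0.0681), with no filter (0.0546) and at the threshold of 0.01.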
